A study of Triticum aestivum with 18 samples.

Results

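Sucrose-phosphate synthase 4 (SPS4) of bread wheat (Triticum aestivum) was represented by 3 of the 115478 loci in the deposited expression table. They were MSTRG.35971 on chromosome arm 4AL, MSTRG.39324 on 4BS and MSTRG.42906 on 4DS, here called the A, B and D copies. Each carried the description of a probable sucrose-phosphate synthase 4, and no other locus did. The copies had been chosen by their FPKM in leaves, because their transcripts were lower in leaves of plants that had lost part or all of the spike. All comparisons among the leaf groups are therefore given below as descriptions without a test. The grain values played no part in that choice and were tested.

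The samples were poly(A) RNA libraries of flag leaves and grains at grain filling, in 6 groups of 3 libraries. Flag leaves came from plants with 0.5 of the spike cut off (partial removal), from plants with the whole spike cut off (whole removal) and from plants left to grow normally (control). Grains came from spikes after partial removal, from plants whose spikes were shaded and whose leaves were all cut off (shaded and defoliated), and from control plants. Every cut took away spike or leaves, so the wound and the lost organ cannot be told apart, and neither can shading and defoliation, which were always combined. The labels name no cultivar and do not state that replicate libraries are from different plants. The p-values thus rest on a spread between libraries that may be technical.

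Sucrose is the sugar that wheat leaves export through the phloem to the growing grain. Sucrose-phosphate synthase joins UDP-glucose and fructose 6-phosphate into sucrose 6-phosphate, and sucrose-phosphatase then releases sucrose. The synthase is regulated in its amount and by phosphorylation. Kinases of the SNF1-related family are known to contribute to its phosphorylation, and 14-3-3 proteins to its regulation. Bread wheat carries 3 related genomes, A, B and D, so most genes exist as near-identical copies called homoeologs. The copy on the long arm of 4A belongs with those on the short arms of 4B and 4D because the arms of 4A were rearranged in wheat evolution. No sequence of these genes was used here. Reads of 1 homoeolog may have been counted for another, so the values of a single copy are less certain than those of all copies together.

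Values are FPKM, fragments normalised to transcript length and library total, which allows loci of different length to be compared. Scaled FPKM were divided by a library factor set on the median gene of each tissue, and jointly scaled FPKM by 1 set of factors over all 18 libraries. Read counts were not used here, so no counting error can be given. Relative depth, read from the steps between the lowest values, spanned 0.812 to 1.06 times that of control leaf library 1. The tissue labels were checked with 78 loci of the leaf photosynthetic apparatus and 17 loci of gliadins and glutenins, the grain storage proteins. The first list summed to between 1300 and 7155 jointly scaled FPKM in leaf libraries and between 4.08 and 53.7 in grain libraries, where 23 to 54 of its loci were above 0. The second list summed to between 875 and 7709 in grain libraries and was at most 0.0118 in 7 leaf libraries, but reached 28.8 and 45.0 in control leaf libraries 2 and 3. Shaded grain library 2 stood apart from the others. Loci without a gene name took 89.9% of its FPKM, and 12276 loci reached 1 FPKM there, against at least 36709 in every other library. Its scaling factor within grain was 0.226. Its unscaled FPKM of the A, B and D copies, 0.129, 0.122 and 0.246, were the lowest of the grain libraries. Scaling turned them into 0.571, 0.540 and 1.09, the highest of the shaded and defoliated group, so these scaled values rest on very low readings.

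All 3 copies were lower in flag leaves after either form of spike removal, and their means were lowest after whole removal. The A copy measured 4.97, 8.99 and 10.2 scaled FPKM in the 3 libraries after partial removal, 6.22, 3.33 and 4.50 after whole removal, and 23.6, 30.3 and 24.8 in control leaves. Every library from a treated plant was below every control library, while the ranges of partial and whole removal overlapped. The group means were 8.07 ± 2.75 after partial removal, 4.68 ± 1.45 after whole removal and 26.2 ± 3.59 in control leaves (SD, n = 3 each). The mean of the A copy was 3.25-fold lower after partial removal and 5.60-fold lower after whole removal than in control leaves.

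The B copy measured 10.6, 17.4 and 18.5 scaled FPKM after partial removal, 10.5, 5.16 and 6.33 after whole removal, and 36.4, 42.3 and 31.2 in control leaves. Its 3 groups did not overlap, although the lowest library of partial removal and the highest of whole removal lay side by side. The means were 15.5 ± 4.30 after partial removal, 7.33 ± 2.80 after whole removal and 36.7 ± 5.59 in control leaves (SD, n = 3 each), which is 2.36-fold and 5.00-fold lower than control. The D copy measured 11.6, 17.4 and 16.2 scaled FPKM after partial removal, 9.10, 5.49 and 6.97 after whole removal, and 35.4, 42.7 and 30.2 in control leaves. The D copy, like the B copy, had 3 separate groups in leaf. Its means were 15.1 ± 3.07, 7.19 ± 1.81 and 36.1 ± 6.25 in the same order of groups (SD, n = 3 each), 2.40-fold lower after partial removal and 5.02-fold lower after whole removal than in control. The share of all leaf genes that separate treated from control libraries, or all 3 groups, was not counted. Since the copies were chosen on leaf values, their separation is only a description.

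On the log2(scaled FPKM + 1) scale, which understates differences of low values, the A copy differed by -1.63 ± 0.27 (SE) between partial removal and control. The B copy differed by -1.22 ± 0.28 and the D copy by -1.21 ± 0.22 in the same comparison. Whole removal differed from control by -2.28 ± 0.27 in the A copy, -2.22 ± 0.28 in the B copy and -2.19 ± 0.22 in the D copy. The 3 copies were thus within 1 SE of each other after whole removal, and the A copy was the furthest below control after partial removal. Whole removal differed from partial removal by -0.65 ± 0.27 in the A copy, -1.002 ± 0.28 in the B copy and -0.98 ± 0.22 in the D copy. For scale only, 0.542% of the 48696 genes tested in leaf were called lower after partial removal than in control at a Benjamini-Hochberg adjusted p under 0.05 with limma. The share was 9.51% for whole removal against control and 7.94% for whole against partial removal. The 264 calls behind the share of 0.542% fell to 68 without control leaf library 1, 50 without control leaf library 2, and 123, 102 and 88 without partial-removal leaf library 1, 2 and 3. The 4629 calls behind the share of 9.51% fell to 2668 and 2851 without control leaf library 1 and 2, and to 2798 without whole-removal leaf library 2. The 3868 calls behind the share of 7.94% fell to 2424 and 2004 without partial-removal leaf library 1 and 2, and to 2078 and 2118 without whole-removal leaf library 2 and 3.

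Storage protein transcripts were seen in control leaf libraries 2 and 3 and not in library 1. Control leaf library 1, with none of the 17 storage protein loci above 0, had 23.6, 36.4 and 35.4 scaled FPKM of the A, B and D copies, each above every library from treated plants. Loci without a gene name took 25.8% to 34.2% of the FPKM in leaf libraries from treated plants and 13.9% to 19.7% in control leaf libraries. Without any scaling between libraries, the median of all genes shifted to -0.23 between partial removal and control and to -0.15 between whole removal and control. Calls after partial removal were then 577 higher and 1469 lower, against 535 higher and 264 lower with scaling, and the copies stayed below control by at least 1.52. In such bulk tissue, fewer cells that use these genes and less RNA per cell cannot be told apart.

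**Figure D1:**
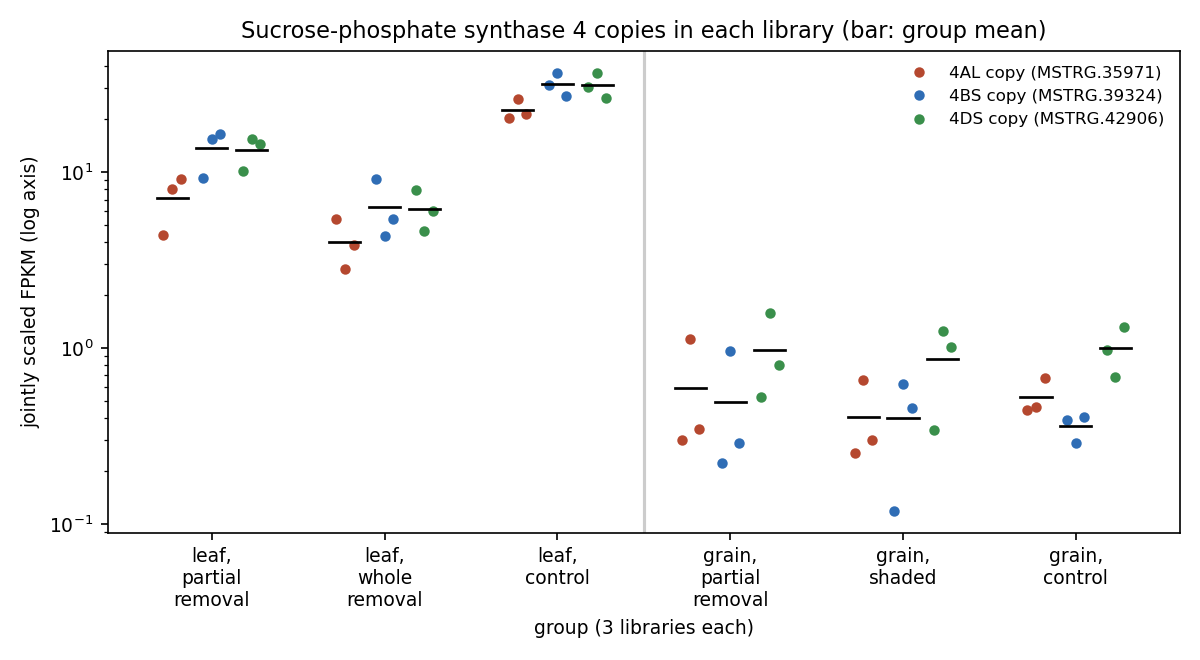
Jointly scaled FPKM (log axis) of the A (4AL), B (4BS) and D (4DS) copies in each of the 18 libraries, with the mean of each group of 3 as a bar. Control leaves average 22.7, 31.8 and 31.3 for the A, B and D copies, both groups of leaves from treated plants lie below them, and all grain libraries lie at 1.58 or lower.

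Across all 6 groups the copies were leaf transcripts. In control plants the A copy averaged 22.7 ± 3.05 jointly scaled FPKM in flag leaf and 0.529 ± 0.130 in grain (SD, n = 3 each), a ratio of 43.0. The B copy averaged 31.8 ± 4.73 in control leaf and 0.362 ± 0.0634 in control grain, a ratio of 87.7. The D copy averaged 31.3 ± 5.31 in control leaf and 0.996 ± 0.316 in control grain, a ratio of 31.4. After partial removal the ratio of leaf to grain was 12.1 for the A copy, 28.1 for the B copy and 13.8 for the D copy. The grain means behind these ratios were 0.593 ± 0.467, 0.492 ± 0.410 and 0.971 ± 0.548 (SD, n = 3 each). Partial-removal grain library 2, the highest for each copy, raised them and so lowered the ratios. No grain library reached the level of any leaf library for any copy. On the log2(jointly scaled FPKM + 1) scale the leaf exceeded the grain by 3.95, 4.58 and 4.01 in control plants for the A, B and D copies. The corresponding differences after partial removal were 2.35, 3.31 and 2.88.

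The order of the 6 groups was the same at the top for each copy. Control leaf was highest, followed by leaf after partial removal and leaf after whole removal. For the A copy the second and the third place overlapped, at 7.17 ± 2.48 jointly scaled FPKM after partial removal and 4.03 ± 1.31 after whole removal (SD, n = 3 each). For the B and D copies neighbouring leaf groups did not overlap, but for the B copy the gap of 7.48 between the means of partial and whole removal was close to the sum of their SDs, 6.41. The 3 grain groups overlapped for every copy, so no order among them can be given. Their means lay between 0.404 and 0.593 for the A copy, between 0.362 and 0.492 for the B copy, and between 0.869 and 0.996 for the D copy.

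In grain, none of the copies showed a detectable difference between treatments. The D copy was the only one that reached the filter of 1 FPKM in 3 libraries. It measured 0.470, 1.41 and 0.668 scaled FPKM in grains after partial removal, 0.291, 1.09 and 0.894 in grains of shaded and defoliated plants, and 0.873, 0.596 and 1.14 in control grains. The 3 groups overlapped throughout. With limma's moderated test over 45784 genes, partial removal differed from control by -0.04 ± 0.24 (log2 ± SE, 95% confidence interval -0.58 to 0.50, adjusted p = 0.994). Shaded and defoliated plants differed from control by -0.11 ± 0.24 (interval -0.65 to 0.43, adjusted p = 0.864) and from partial removal by -0.07 ± 0.24 (interval -0.61 to 0.47, adjusted p = 0.932).

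Among all genes tested in grain, 0.0284% were called between partial removal and control, 1.82% between shaded and defoliated plants and control, and 0.190% between shaded and defoliated plants and partial removal. The leaf difference of the D copy after partial removal, -1.21, could not have been reached in grain on the log2(scaled FPKM + 1) scale. Control grain averaged 0.870 scaled FPKM, and with a pseudocount of 1 even a complete loss would give a smaller fall. The tissues are thus not directly comparable, because the pseudocount compresses values as low as those of grain. The difference between the effects in leaf and in grain was not tested.

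The A and B copies were lower still in grain, and could be tested with an FPKM minimum of 0.1, over 82639 genes. The A copy measured 0.267, 1.01 and 0.290 scaled FPKM after partial removal, 0.217, 0.571 and 0.267 in shaded and defoliated plants, and 0.397, 0.400 and 0.586 in control grains. The B copy measured 0.197, 0.859 and 0.242 after partial removal, 0.101, 0.540 and 0.404 in shaded and defoliated plants, and 0.351, 0.250 and 0.349 in control grains. For both copies 1 library of partial removal, library 2, was the highest of all grain libraries, and the other 2 of that group lay below every control.

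In this wider fit the A copy differed by 0.02 (log2, 95% confidence interval -0.38 to 0.43, adjusted p = 0.998, limma) between partial removal and control, and by -0.12 (interval -0.52 to 0.29, adjusted p = 0.813) between shaded and defoliated plants and control. The B copy differed by 0.09 (interval -0.31 to 0.49, adjusted p = 0.990) and by 0.02 (interval -0.38 to 0.42, adjusted p = 0.973) in the same comparisons. Between shaded and defoliated plants and partial removal the A copy differed by -0.14 (interval -0.55 to 0.26, adjusted p = 0.810) and the B copy by -0.07 (interval -0.47 to 0.33, adjusted p = 0.921). Control grains averaged 0.461 (A copy) and 0.317 (B copy) scaled FPKM, so with a pseudocount of 1 even a complete loss would give a small difference. A fall of these copies could hardly have been detected, and the narrow intervals do not show its absence.

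Partial-removal grain library 2 also had the highest value of the D copy, so the sum of the 3 copies was 3.68 jointly scaled FPKM there, against 1.05 and 1.43 in libraries 1 and 3 of its group. Its sum over the leaf marker loci was 41.9 jointly scaled FPKM, against 25.9 and 53.7 in libraries 1 and 3, and the part of these markers in the SPS4 values was not tested. Without that library the D copy was higher in shaded and defoliated plants than after partial removal, by 0.13 on the log2 scale, in place of lower. Without shaded grain library 2, the D copy differed by -0.28 between shaded and defoliated plants and control (adjusted p = 0.729), and without shaded grain library 1 by 0.10 (adjusted p = 0.861).

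The balance of the copies differed between the tissues. In leaves the B and D copies were level and the A copy lower. Of the summed FPKM of the 3 copies, the A copy made up 20.5% ± 2.22 after partial removal, 24.4% ± 0.776 after whole removal and 26.6% ± 2.04 in control leaves (SD, n = 3 each). The B copy made up 40.0% ± 1.12, 37.7% ± 2.63 and 37.0% ± 1.05 in the same order, and the D copy 39.5% ± 3.33, 37.9% ± 2.29 and 36.4% ± 1.13. The share of the A copy after partial removal lay between 18.3% and 22.8%, below all 3 control leaves at 24.7% to 28.7%. After whole removal its share was 24.1%, 23.8% and 25.3%, which overlapped with control.

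In grain the D copy was the largest. It made up 49.7% ± 6.34 of the summed FPKM after partial removal, 51.5% ± 4.99 in shaded and defoliated plants and 52.2% ± 3.84 in control grains (SD, n = 3 each). The A copy made up 27.8% ± 3.37, 26.2% ± 9.28 and 28.3% ± 3.82 in the same groups, and the B copy 22.5% ± 3.24, 22.3% ± 4.97 and 19.5% ± 2.46. The A copy was below the D copy in 9 of 9 grain libraries, by a mean log2 ratio of -0.76 ± 0.36 (SD) of FPKM + 0.1, so that D + 0.1 was 1.70-fold A + 0.1 (exact two-sided sign-flip permutation test, p = 0.00391, which is the smallest that 9 libraries allow, adjusted p = 0.00586 over 3 pairs). The B copy was likewise below the D copy in 9 of 9 libraries, by -1.02 ± 0.26 or 2.03-fold (exact permutation test, adjusted p = 0.00586). The size of these ratios depends on the pseudocount: with FPKM + 1 they were -0.33 for A over D and -0.42 for B over D. Their adjusted p was the same by necessity, because a pseudocount cannot change which copy is the higher in a library. The A and B copies did not differ beyond the spread, at 0.26 ± 0.36 with A the higher in 8 of 9 libraries (exact permutation test, adjusted p = 0.0703). The exception was shaded grain library 3, with 0.335 FPKM of the A copy and 0.507 of the B copy. Without it the ratio was 0.35 (exact permutation test, adjusted p = 0.00781). That p is the smallest that 8 libraries allow, and it follows from leaving out the only library with B the higher. Homoeologs can exchange reads, and this was not tested for these low values.

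In leaf, where the same ratios are a description, the A copy was below the B copy by -0.68 ± 0.24 and below the D copy by -0.67 ± 0.27, in 9 of 9 libraries each. The ratio of B over D averaged 0.01 ± 0.12 and ranged from -0.14 to 0.20 over the leaf libraries. In grain libraries the ratio of B over D ranged from -1.49 to -0.64, so the tissues did not overlap. The copies varied together within each tissue. Over the 9 leaf libraries, Pearson's r between 2 copies lay between 0.977 and 0.994, and over the 9 grain libraries between 0.845 and 0.913. These libraries share treatment groups and, between copies, possibly reads, so the correlations are a description only.

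**Figure D2:**
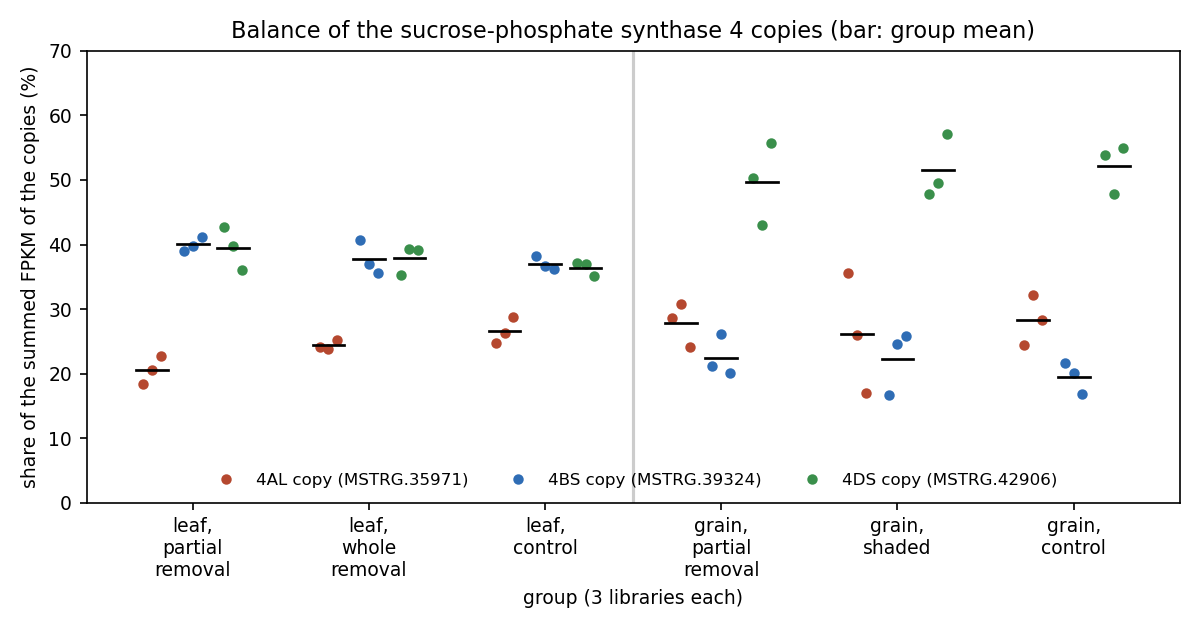
Share of each copy in the summed FPKM of the 3 copies (%), per library, with the mean of each group of 3 as a bar. The A copy is lowest in all leaf libraries, and the D copy is highest in all grain libraries, at 43.1% to 57.2%.

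Other loci of the same enzyme were found through the deposited Gene Ontology terms, because no other description named it. The term for sucrose-phosphate synthase activity was attached to 7 loci beside the 3 copies, and that for sucrose-phosphatase activity to 6. This list was drawn up after the values had been seen. Of the summed FPKM of all 10 synthase loci, SPS4 made up 38.1% ± 11.0 in leaves after partial removal, 44.0% ± 7.23 after whole removal and 64.1% ± 6.84 in control leaves (SD, n = 3 each). In grain its share was 3.50% ± 2.54 after partial removal, 2.31% ± 1.22 in shaded and defoliated plants and 2.97% ± 0.679 in control. SPS4 thus carried most of the FPKM of these 10 annotated loci in control leaf and little of it in grain. Any synthase locus that lacks the term was not counted.

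The other synthase locus with a high level in leaf, MSTRG.30252 on 3B, had another order of groups. It measured 56.8, 41.6 and 32.1 scaled FPKM in leaves after partial removal, 8.32, 6.81 and 5.25 after whole removal, and 51.3, 29.6 and 22.8 in control leaves. Partial removal overlapped with control, and whole removal lay below both. It did not pass the test between partial removal and control (log2 0.36 ± 0.32 SE, adjusted p = 0.688, limma), the comparison on which the SPS4 copies were chosen. It was lower after whole removal than in control (log2 -2.13 ± 0.32, adjusted p = 0.00262) and than after partial removal (log2 -2.49 ± 0.32, adjusted p = 0.00160). In grain it averaged 26.7 jointly scaled FPKM after partial removal, 30.2 in shaded and defoliated plants and 29.3 in control, and passed no test.

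MSTRG.33544 on 3DS was likewise called lower after whole removal and not after partial removal, at a lower level. Its means were 3.47 ± 0.697 scaled FPKM in leaves after partial removal, 0.534 ± 0.0728 after whole removal and 3.65 ± 0.511 in control leaves (SD, n = 3 each). It fell by 1.59 on the log2 scale after whole removal (adjusted p = 0.000335) and differed by -0.06 after partial removal (adjusted p = 0.902), both against control with limma. MSTRG.60257 on 6BS and MSTRG.67851 on 7BL lay within 0.14 of control on the log2 scale in both groups of leaves and passed no test. MSTRG.32039 on 3DL, MSTRG.29376 on 3B and MSTRG.22719 on 3AL were below 0.1 jointly scaled FPKM in leaf. In control grain these 3 loci averaged 6.43, 1.50 and 1.21 jointly scaled FPKM, above each SPS4 copy.

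Sucrose-phosphatase, the enzyme of the next step, had 6 loci, of which 4 were tested in leaf and none was called. MSTRG.47220, MSTRG.51040 and MSTRG.54559, on the short arms of 5A, 5B and 5D, differed by 0.18, 0.17 and 0.34 on the log2 scale between partial removal and control leaves. After whole removal they differed from control by -0.12, -0.28 and -0.13. MSTRG.6506 on 1BS lay on the other side of control after whole removal, at 1.31 ± 0.555 scaled FPKM against 0.526 ± 0.228 in control leaves (SD, n = 3 each, log2 0.58 ± 0.22 SE, adjusted p = 0.0967, limma). Without whole-removal leaf library 2, its lowest in that group, it was called higher (log2 0.81, adjusted p = 0.0355, limma). The locus TRIAE_CS42_1DS_TGACv1_080206_AA0243120 on 1DS was under the filter, at 0.526 ± 0.226 scaled FPKM after whole removal and 0.134 ± 0.0590 in control leaves (SD, n = 3 each). It was called higher with an FPKM minimum of 0.1 (log2 0.41, adjusted p = 0.0427, limma). MSTRG.2913 on 1AS, also under the filter, averaged at most 0.0838 scaled FPKM in a leaf group.

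Of the 8 loci of both enzymes tested in leaf, 0 were called after partial removal, where 1.64% of all genes were, and 0 had an unadjusted p under 0.05. With a share this low, 0 called among 8 loci is near the background. The 2 loci called lower after whole removal than in control, where 9.51% of all genes were, were MSTRG.30252 and MSTRG.33544. The median of the 8 was 0.18 after partial removal and -0.13 after whole removal, against -0.00 and -0.01 over all genes tested. In grain 0 of 10 such loci were called in any of the 3 comparisons with limma. Over all genes, 0.0284% were called between partial removal and control and 1.82% between shaded and defoliated plants and control. Between shaded and defoliated plants and partial removal 0.190% were called. With shares this low, a count of 0 among 10 loci is near the background. An unadjusted p under 0.05 was found for 1, 2 and 4 of the 10 loci in the same order of comparisons. The share of all genes under that unadjusted threshold is not given here, so these counts have no background. The synthase MSTRG.29376 was called higher in shaded and defoliated plants than after partial removal with quantile normalization (log2 0.63, adjusted p = 0.0433, limma). With the scaling used throughout it differed by 0.60 (adjusted p = 0.0574, limma).

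**Figure D3:**
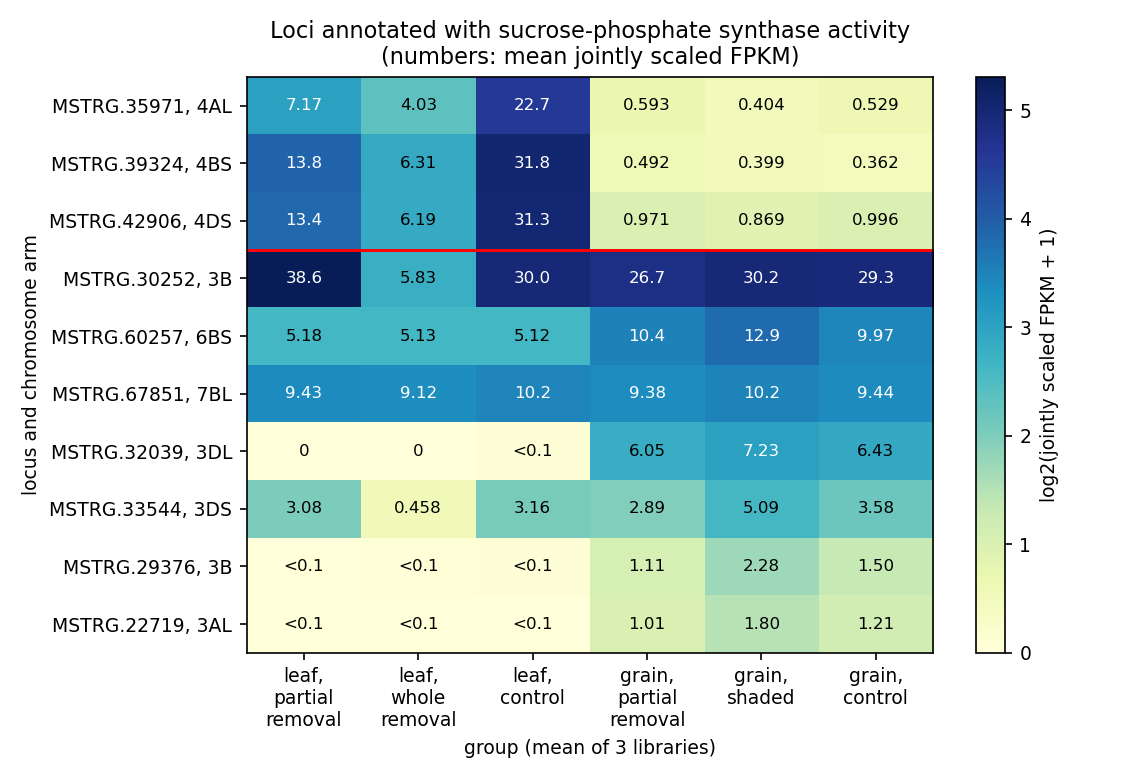
Mean jointly scaled FPKM of the 10 loci annotated with sucrose-phosphate synthase activity in each group of 3 libraries, coloured on the log2(FPKM + 1) scale, with the 3 SPS4 copies above the red line. In control leaf the B and D copies (31.8 and 31.3) are highest, followed by MSTRG.30252, and in grain MSTRG.30252 (26.7 to 30.2) is highest.

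The list drawn up for further sucrose synthesis enzymes, matched by description, held 16 loci, of which 15 were tested in leaf and 9 in grain. Other enzymes sought for it matched no locus, among them cytosolic glucose-6-phosphate isomerase, phosphoglucomutase and the triose phosphate translocator. Counts over this list thus do not describe the sucrose synthesis route as a whole. It comprised the 2 subunits of the pyrophosphate-dependent phosphofructokinase, which interconverts fructose 6-phosphate and fructose 1,6-bisphosphate, with 9 alpha and 3 beta loci. It also held 1 cytosolic fructose-bisphosphatase, which supplies fructose 6-phosphate for sucrose, and 3 loci of UTP-glucose-1-phosphate uridylyltransferase 3. The last enzyme is known in Arabidopsis to make UDP-glucose for sulfolipids inside the chloroplast, and so is not the enzyme of the cytosolic sucrose route.

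After partial removal, 0 of the 15 loci were called against control leaves with limma, where 1.64% of all genes were, and 0 had an unadjusted p under 0.05. With a share this low, a count of 0 called among 15 loci is near the background. The median log2 difference of the 15 loci was 0.08, against -0.00 over all genes tested. The 15 loci ranged from -0.24 to 0.55 in this comparison, and the SPS4 copies, which were chosen on it, from -1.63 to -1.21. After whole removal 13 of the 15 were lower than in control, where 9.51% of all genes were, with a median of -0.90 against -0.01. They were all 8 tested alpha loci, 2 of the 3 beta loci and all 3 uridylyltransferase loci. Without control leaf library 2 or without whole-removal leaf library 2 the count was 8.

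Between whole and partial removal 13 of the 15 were also lower, where 7.94% of all genes were. Without partial-removal leaf library 1 or library 2 that count was 8. The uridylyltransferase MSTRG.7858 on 1DL averaged 20.5 ± 3.53 scaled FPKM after partial removal, 4.01 ± 1.74 after whole removal and 17.9 ± 5.38 in control leaves (SD, n = 3 each). The phosphofructokinase alpha locus MSTRG.62412 on 6DL averaged 10.0 ± 4.22, 1.68 ± 0.407 and 8.64 ± 2.81 scaled FPKM in the same order, and the beta locus MSTRG.67665 on 7AS 18.7 ± 5.04, 10.1 ± 0.495 and 19.8 ± 2.47. After whole removal the 3 loci fell by 1.94, 1.82 and 0.90 on the log2 scale relative to control (adjusted p = 0.00387, 0.00414 and 0.0148, limma). The cytosolic fructose-bisphosphatase MSTRG.26577 on 3B passed no test, at 84.4 ± 30.7 scaled FPKM after partial removal, 49.3 ± 15.1 after whole removal and 62.7 ± 20.9 in control.

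**Figure D4:**
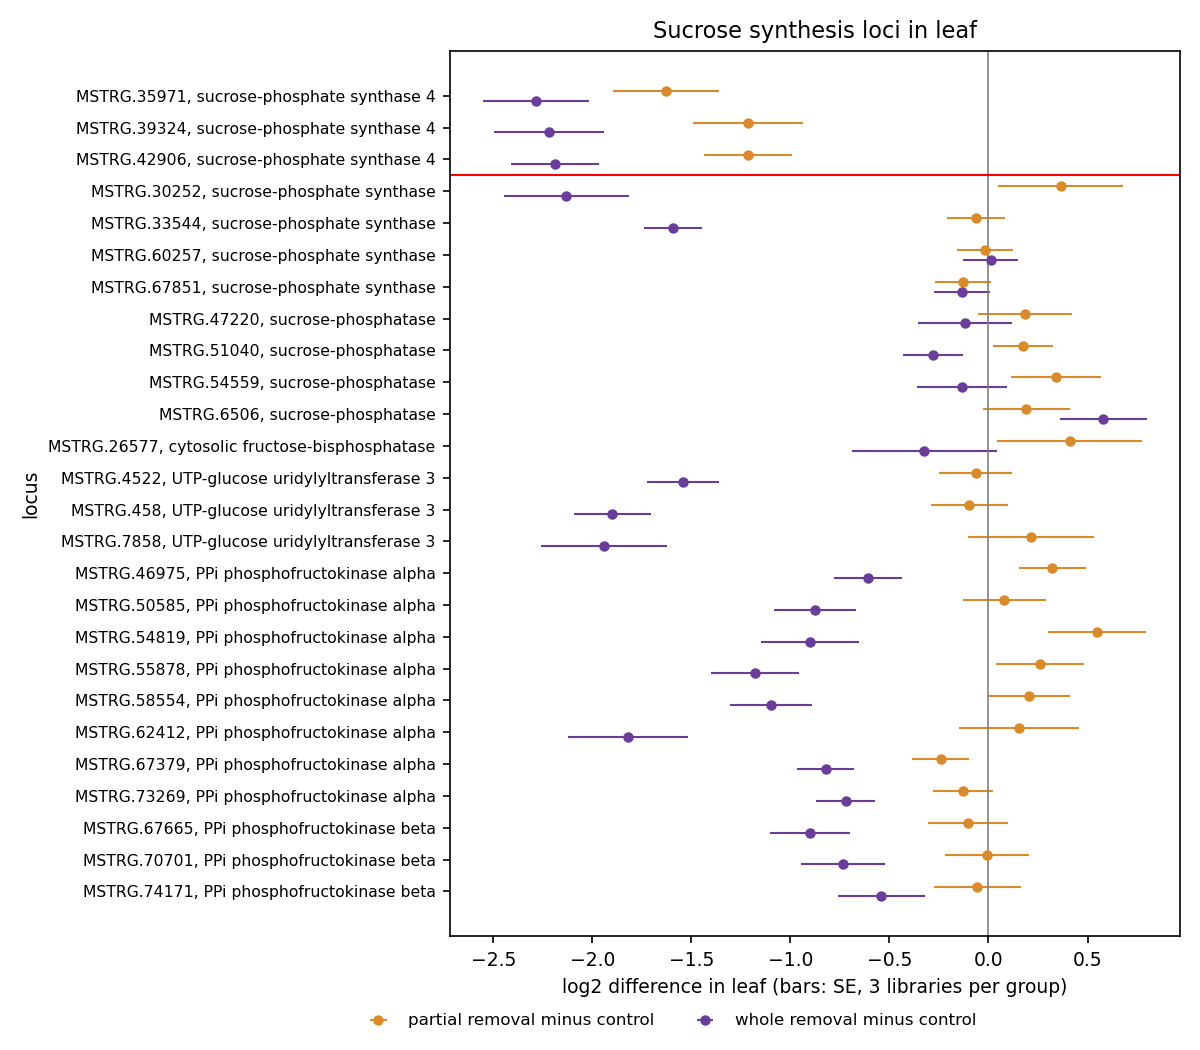
Log2 difference from control leaf, with its SE (3 libraries per group), for the SPS4 copies (above the red line) and for other tested loci (below it). The latter are the sucrose synthesis list, mostly phosphofructokinase subunits, and synthase and phosphatase loci named from their Gene Ontology terms. After partial removal the SPS4 copies, chosen on leaf values, lie at -1.63 to -1.21, and the loci below the line lie between -0.24 and 0.55. After whole removal 13 of 15 loci of the list and 2 of 8 synthase and phosphatase loci were called lower, where 9.51% of all genes were.

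In grain 3 of the 9 tested loci of the list were lower in shaded and defoliated plants than in control, where 1.50% of all genes were, with a median of -0.28 against 0.00. They were the phosphofructokinase alpha loci MSTRG.46975, MSTRG.50585 and MSTRG.54819 on 5AS, 5BS and 5DS. MSTRG.50585 averaged 3.10 ± 1.10 scaled FPKM in shaded and defoliated plants and 16.6 ± 5.67 in control (SD, n = 3 each, log2 -2.08 ± 0.28 SE, adjusted p = 0.0115, limma). The count was 1 without shaded grain library 3 or control grain library 3, 2 without shaded grain library 2 or control grain library 1, and 0 when only the 2 groups compared entered the fit. Neither of the other grain comparisons called a locus of the list. Over all genes, 0.0284% were called between partial removal and control and 0.190% between shaded and defoliated plants and partial removal. An unadjusted p under 0.05 was found for 3 of 9 and 6 of 9 loci, in the same order. The share of all genes under that unadjusted threshold is not given here, so these counts have no background. The SPS4 copies passed no test in any grain comparison.

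Of 13 loci described as 14-3-3 proteins, SNF1-type kinases or subunits of SNF1-related kinases, 10 were tested in leaf and 12 in grain. These families are known to regulate the enzyme, but whether these loci do so was not tested. None of the loci was called in any of the 6 comparisons with limma. Over all genes, calls in either direction came to 1.64% between partial removal and control leaves, where 0 called of 10 loci is near the background. They came to 20.3% between whole removal and control and 16.5% between whole and partial removal. In grain they came to 0.0284% between partial removal and control, 1.82% between shaded and defoliated plants and control, and 0.190% between shaded and defoliated plants and partial removal, so 0 called of 12 loci is near the background there. The SNF1-type kinase MSTRG.42693 on 4DS, at 7.12 ± 1.70 scaled FPKM in leaves after whole removal and 11.6 ± 0.292 after partial removal (SD, n = 3 each), differed by -0.66 ± 0.28 (log2 ± SE, adjusted p = 0.141, limma). It was called lower when only these 2 groups entered the fit (adjusted p = 0.0441) and without control leaf library 3 (adjusted p = 0.0474). In leaf, 2 loci of this list had an unadjusted p under 0.05 between partial removal and control, 0 between whole removal and control, and 2 between whole and partial removal. In grain the numbers were 0 between partial removal and control, 2 between shaded and defoliated plants and control, and 4 between shaded and defoliated plants and partial removal. The share of all genes under that unadjusted threshold is not given here, so these counts have no background. Phosphorylation was not measured here.

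The loci whose pattern over the 9 leaf libraries was most like that of SPS4 were sought by Pearson's r with the mean standardised profile of the copies, among loci with an informative description and a mean of at least 5 FPKM. They were an auxin response factor (MSTRG.22633, 3AL, r = 0.949), a serine/threonine-protein kinase (MSTRG.41478, 4DL, r = 0.946), THO complex subunit 1 (MSTRG.42108, 4DL, r = 0.933), histidine kinase 3 (MSTRG.26444, 3B, r = 0.925) and a potassium transporter (MSTRG.12558, 2AL, r = 0.924). The protein kinase averaged 3.14 ± 0.654 scaled FPKM after partial removal, 2.38 ± 0.193 after whole removal and 9.50 ± 1.10 in control leaves (SD, n = 3 each). The auxin response factor averaged 17.1 ± 2.63, 10.5 ± 0.754 and 23.8 ± 3.27 in the same order, a smaller difference than that of SPS4.

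Over all 18 libraries the most similar loci were a glycosyltransferase (MSTRG.72852, 7DL, r = 0.981), the mitochondrial cyanoalanine and cysteine synthase C1 (MSTRG.45485, 5AL, r = 0.977), a cysteine synthase (MSTRG.51754, 5DL, r = 0.976), a glutamate decarboxylase (MSTRG.43504, 4DS, r = 0.973) and an MLO-like protein (MSTRG.44653, 5AL, r = 0.971). The same 5 loci were found without shaded grain library 2. The glycosyltransferase averaged 12.7 ± 1.41 jointly scaled FPKM in leaves after partial removal, 3.87 ± 1.32 after whole removal and 27.2 ± 9.11 in control leaves, and at most 0.240 in a grain group. The correlations over 18 libraries rest mainly on the difference between leaf and grain and are given as a description.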

How the data were processed

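Flag leaves and grains gave 18 poly(A) libraries, 3 in each of 6 groups read from the sample titles. The authors deposited 1 table of FPKM per locus. The submitters' processing notes name HISAT, StringTie and edgeR without versions or settings; the strandedness of counting and the genome build are not given in the sources used here. Chromosome arms come from the gene names, and positions and sequences were not used here. FPKM hides the number of reads, so precision rests on the spread between libraries.

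Tested were loci that reached 1 FPKM in 3 or more of a tissue's 9 libraries (48696 in leaf, 45784 in grain). Each library was divided by its median ratio to the mean library on a log scale, over tested loci above 0 throughout. Log2(scaled FPKM + 1) was fitted with limma 3.58.1 in R 4.3.3, with 1 mean per group, moderated variances with a trend, and a Benjamini-Hochberg threshold of 0.05. The fit was tested on simulated data. Copy ratios used log2(FPKM + 0.1) and exact sign flips over the 9 grain libraries. The labels do not say whether library numbers pair the samples, and the main fit used no pairing.

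The members, lists, tests and naming rule were chosen with earlier results of these data known. Named were the copies, the other loci of the synthase and phosphatase, of each other list at most 3 called loci per comparison by size, once per description, and the 5 most similar patterns in leaf and in all libraries. Further loci were named after their values were seen: the cytosolic fructose-bisphosphatase, the other phosphofructokinase loci called in grain and an SNF1-type kinase. Alternatives varied scaling, pseudocount, filter, groups in the fit, block and libraries.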

Additional observations from a re-analysis of the deposited data

How the results depend on the processing

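The leaf differences of SPS4 kept their sign in all settings tried. Without scaling the D copy differed by -1.52 between partial removal and control leaves. With a pseudocount of 0.1, control leaf exceeded control grain by 5.19, 6.11 and 4.87 (A, B and D copies, log2), and leaf exceeded grain after partial removal by 3.52, 4.72 and 3.75. Without scaling, control leaf exceeded control grain by 4.34, 4.97 and 4.42. In grain, no difference of a copy passed a test in any setting. The A copy was lower in shaded and defoliated plants than in control in all settings (-0.27 to -0.0464 without single libraries), while the other grain differences changed sign in at least 1 setting. The D copy differed between partial removal and control by 0.0907 without scaling, and by -0.24 to 0.11 when single libraries were left out. Between shaded and defoliated plants and partial removal it differed by 0.0161 with quantile normalization and by -0.23 to 0.14 without single libraries. Between shaded and defoliated plants and control the range without single libraries was -0.28 to 0.10. The A copy differed in that comparison by -0.28 without scaling and by -0.38 with a pseudocount of 0.1. Quantile normalization gave no value for the A and B copies in grain, which were under the filter.

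Settings without partial-removal grain library 2 were added after the data were seen. With an FPKM minimum of 0.1, the D copy then differed by 0.14 between shaded and defoliated plants and partial removal. With a pseudocount of 0.1 as well, the differences in that comparison were 0.18, 0.34 and 0.23 (A, B and D), those between partial removal and control -0.55 and -0.37 (A and B), and that between shaded and defoliated plants and control -0.37 (A). The ratio of A over B in grain ranged from 0.20 to 0.35 without single libraries. MSTRG.33544 differed by -0.16 to 0.0705 between partial removal and control leaves in such fits. The library numbers showed no clear pairing, although so few libraries cannot exclude it. Deviations of libraries with the same number correlated by -0.17 to 0.12 in leaf and by -0.37 to 0.10 in grain. With the number as a replicate block, the B copy kept its difference of -1.22 between partial removal and control leaves, the sucrose synthesis list had 11 in place of 13 loci lower after whole removal than in control, and all-gene calls between shaded and defoliated plants and control grains were 22 higher and 366 lower, against 149 and 686. The grain values lie near or under 1 FPKM, where the number of reads behind them is unknown here.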
